A study of Mus musculus with 10 samples.

Results

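Interferon-stimulated genes are the genes that cells switch on when an interferon binds its receptor, and 42 of them, all well-known members of the antiviral programme, were followed in mammary epithelial cells (MECs) and mammary macrophages of mice with and without C/EBPβ in macrophages. They were taken as a named list, chosen with earlier results of these data known, and all 42 were found among the 55487 genes of the count tables. The shares of all genes set beside the 42 below are therefore a description and not an independent test. RNA was sequenced from 10 libraries of MECs and macrophages of 10-wk-old female BALB/c mice in diestrus. WT mice carried floxed Cebpb without Cre (Csf1r-Cre neg;Cebpb fl/fl), and CebpbΔM mice carried the same floxed gene with Cre driven by the Csf1r promoter (Csf1r-iCre pos;Cebpb fl/fl); the labels call the latter C/EBPb knockdown. MECs, left after depletion of lineage-positive cells, gave 2 WT libraries (replicates 1 and 3) and 2 CebpbΔM libraries (1 and 3), and cells selected with antibody to F4/80 gave 2 WT macrophage libraries (4 and 5) and 4 CebpbΔM macrophage libraries (4 to 7). Floxed Cebpb is shared by every library, Csf1r is active in other myeloid cells besides macrophages, and nothing in the labels says that the replicates are separate animals, so p-values measure the spread between these libraries, which may in part be technical.

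Type I interferons (the IFN-α family and IFN-β) act through the receptor IFNAR and the kinases Jak1 and Tyk2, which activate a factor containing STAT2 and IRF9 that binds the interferon-stimulated response element, a repeated GAAA core in the promoters of its targets. Interferon γ acts through its own receptor on a second element, the γ-activated site. The products of the targets sense foreign nucleic acid, block viral replication and feed back on the pathway. Macrophages carry a standing low level of this programme in many tissues, and epithelial cells respond to the same cytokines.

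Promoter letters were read to show a sequence that an interferon-responsive promoter can carry. RefSeq promoters (GRCm38.p6, 250 bases before to 50 after each start site) were at hand for 31 of the 42 genes. A core of the response element, GAAA, any 2 bases and GAAA again, searched on both strands, occurred in 20 of these 31 genes (64.5%) against 3.99% of 27025 genes with a promoter. The letters of the γ-activated site, TTCNNNGAA, which read the same on both strands and can overlap the first motif, occurred in 8 of the 31 (25.8%) against 9.55% of all genes. The genes shown are Isg15, which encodes the ubiquitin-like modifier, 3 RNA-binding Ifit genes, of which Ifit3 and Ifit3b are near-identical copies, and one gene each from the OAS family, the other antiviral effectors and the GTPases. Each stretch is read along the gene's own strand, 5′ to 3′, and capitals mark matches to this core or to its reverse complement.
Isg15 (chr4:156200850-156200921, minus strand): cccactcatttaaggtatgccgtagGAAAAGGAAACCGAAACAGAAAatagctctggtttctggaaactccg
Ifit1 (chr19:34640760-34640838, plus strand): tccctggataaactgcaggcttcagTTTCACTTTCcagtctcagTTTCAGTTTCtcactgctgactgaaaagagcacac
Ifit3 (chr19:34583348-34583441, plus strand): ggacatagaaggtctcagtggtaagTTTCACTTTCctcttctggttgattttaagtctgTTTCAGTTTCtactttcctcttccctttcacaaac
Ifit3b (chr19:34607744-34607837, plus strand): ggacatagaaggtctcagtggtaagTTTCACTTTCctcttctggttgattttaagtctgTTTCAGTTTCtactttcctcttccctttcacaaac
Oas3 (chr5:120777700-120777759, minus strand): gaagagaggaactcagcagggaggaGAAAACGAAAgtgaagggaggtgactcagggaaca
Bst2 (chr8:71537562-71537627, minus strand): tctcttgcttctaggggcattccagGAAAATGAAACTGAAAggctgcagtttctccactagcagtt
Gbp2 (chr3:142620579-142620638, plus strand): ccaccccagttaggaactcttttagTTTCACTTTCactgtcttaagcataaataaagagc
Isg15 held 3 overlapping matches, and Ifit1, Ifit3, Ifit3b and Bst2 held 2 each. The stretches of Ifit3 and Ifit3b were the same letter for letter.

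Library totals ran from 16935000 to 27008166 counts, with the MEC libraries (25310926 or more) deeper than the macrophage libraries (20174722 or fewer). The 42 genes took 0.12% to 0.218% of the counts in MECs, 0.356% and 0.398% in WT macrophages and 0.423% to 0.581% in CebpbΔM macrophages. Levels are given as CPM, counts scaled to a common library size by trimmed mean of M-values (TMM), within each cell type, unless stated. Cebpb itself (chr2:167688915-167690418) had 25 and 28 counts in WT MECs, 69 and 42 in CebpbΔM MECs, 13 and 15 in WT macrophages and 16, 13, 5 and 4 in CebpbΔM macrophages. At these counts the macrophage genotypes overlapped, the libraries labelled CebpbΔM 4 and 5 held as many Cebpb counts as WT, and Cebpb lay below the expression filter of the macrophage test, so the gene does not check the genotype labels. Each direction below is between libraries as they are labelled.

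Taken as a mean over the 42 genes, the log2 CPM on a scale common to the 10 libraries was 5.66 and 5.92 in WT macrophages and 6.44, 6.22, 6.53 and 6.12 in CebpbΔM macrophages. All 4 CebpbΔM macrophage libraries stood above both WT libraries. In MECs the mean was 4.09 (WT 1), 5.1 (WT 3), 4.58 (CebpbΔM 1) and 3.8 (CebpbΔM 3), so that the WT libraries were at once the highest and the second lowest of the 4. The group means were 5.79 ± 0.18 (SD, n = 2) and 6.33 ± 0.19 (SD, n = 4) in WT and CebpbΔM macrophages and 4.6 ± 0.71 (SD, n = 2) and 4.19 ± 0.55 (SD, n = 2) in WT and CebpbΔM MECs. The spread between MEC libraries of one genotype was wider than the difference between their genotypes.

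**Figure D1:**
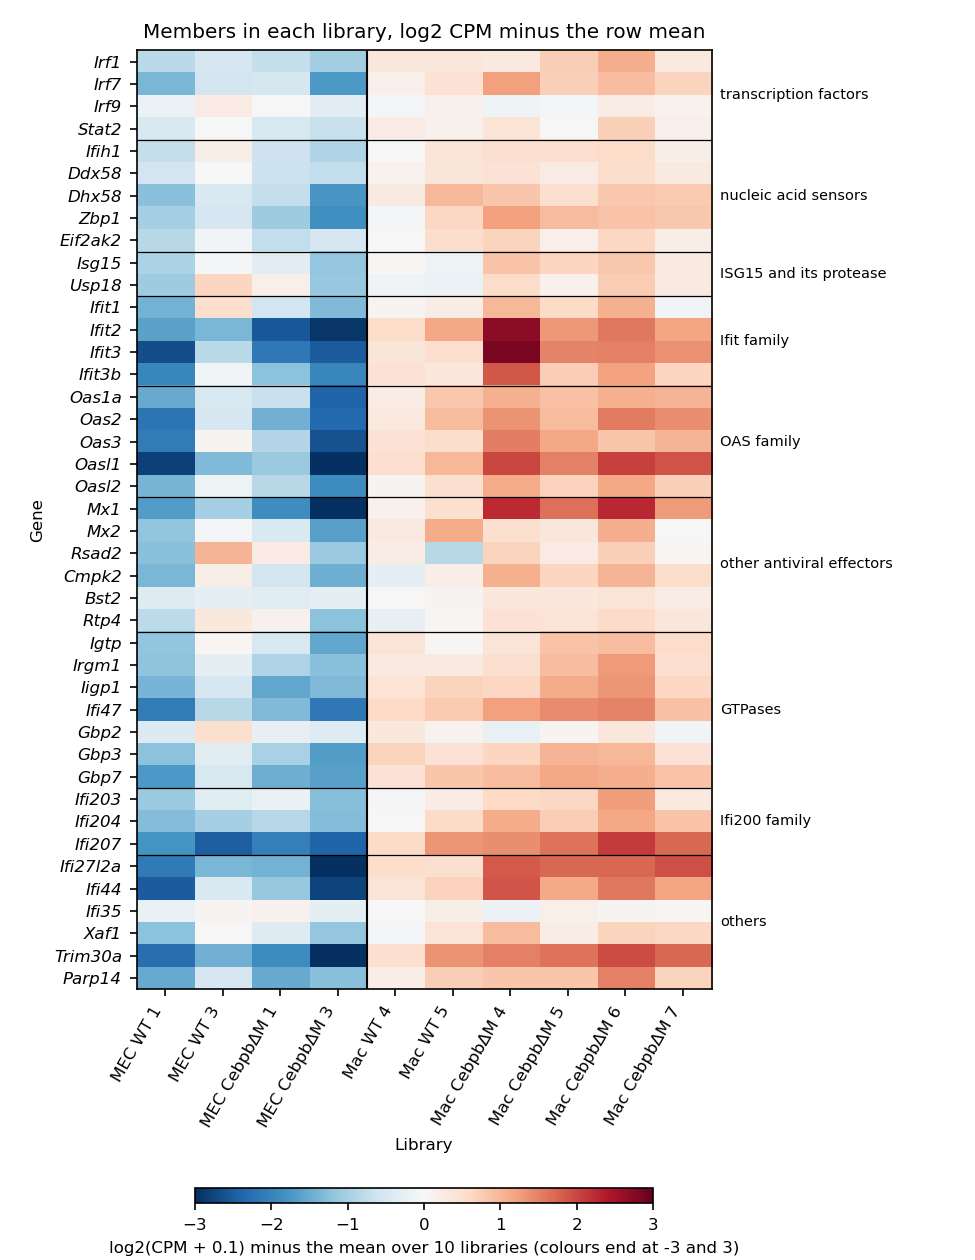
Level of each of the 42 genes (rows, grouped by role) in each of the 10 libraries (columns), as log2(CPM + 0.1) minus the gene's mean over the libraries, with colours ending at -3 and 3. Macrophage columns are redder than MEC columns in most rows, the CebpbΔM macrophage columns are the reddest, and MEC WT 3 is paler than the other MEC columns.

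The first comparison asked whether the genotype moved these genes in macrophages. Their levels were higher in CebpbΔM than in WT macrophages for 38 of the 42 genes, against 50.4% of the 17772 genes tested, and the median log2 fold change was 0.54 against 0.0 over all genes tested. The largest differences were those of Mx1, Ifit3, Ifi27l2a and Oasl1, and the 4 genes on the other side were Irf9, Mx2, Gbp2 and Ifi35. In 22 of the 42 genes every CebpbΔM library was above both WT libraries (9.67% of all genes tested), and in 0 every one was below both (9.08%). None of the 42 passed an adjusted p of 0.05 in edgeR's quasi-likelihood (QL) test, which called 0.0% of all genes tested, and the adjusted p of the members ran from 0.452 to 0.986. At an unadjusted p under 0.05, 19 members were higher and 0 were lower, against 4.96% of all genes higher and 3.67% lower. The likelihood ratio test, which the study's methods name, called 3 members (Oasl1, Mx1 and Ifi27l2a) of 111 genes called higher, or 0.625% of all, and DESeq2 called those 3 with Ifit3 and Ifi44 of 165 genes called higher, or 0.929%. Without WT 4, the library that was lowest in 28 of the 42 genes (66.7%, against 20.6% of all genes), 35 of 42 were still higher and the median was 0.37. That fit left a single WT library, so its tests are not given.

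Markers of macrophages and of other cell types also differed between these libraries. The 11 macrophage markers (Adgre1, Csf1r, Cd68, the C1q genes and others) were all detected and summed to 3800 and 5810 CPM in WT macrophages and to 6790, 7140, 9090 and 8720 CPM in CebpbΔM macrophages on the scale common to the 10 libraries. All 11 had a log2 fold change above 0, with a median of 0.58, and 6 had an unadjusted p under 0.05. The 12 epithelial markers summed to 9040 and 9160 CPM in WT and to 7170, 5360, 5110 and 6120 CPM in CebpbΔM macrophages, a sum carried by the luminal keratins Krt8, Krt18 and Krt19, which were lower in all 4 CebpbΔM libraries. The epithelial markers were not of one kind: 7 of the 11 tested had a log2 fold change above 0, with a median of 0.6, and 1 was higher and 3 were lower at an unadjusted p under 0.05. Krt14, a keratin of basal cells, was at 191 and 59.2 CPM in WT and 713, 377, 317 and 42.7 CPM in CebpbΔM macrophages (log2 fold change 1.53, unadjusted p = 0.134, adjusted p = 0.692), and the milk protein gene Csn2 was at 0 and 0.0498 CPM in WT and 245, 17.2, 0.555 and 0 CPM in CebpbΔM. Siglech, a defining marker of plasmacytoid dendritic cells, which are strong producers of type I interferon, stood at 17.4 and 28.7 CPM in WT and at 58.2, 75.6, 96.5 and 94.0 CPM in CebpbΔM macrophages (log2 fold change 1.81, unadjusted p = 0.000279, adjusted p = 0.452). The other plasmacytoid markers were not of one kind: Ccr9, Cox6a2, Klk1 and Spib had at most 1.62 CPM in any macrophage library. Tcf4 was level, at 169 and 225 CPM in WT and 153, 216, 219 and 171 CPM in CebpbΔM macrophages (log2 fold change -0.06). Cd209d was higher in CebpbΔM, at 78.6 and 112 CPM in WT and 145, 149, 197 and 244 CPM in CebpbΔM (log2 fold change 0.94). Pacsin1 was at 1.15 and 1.24 CPM in WT and 0.628, 0.752, 5.1 and 2.41 CPM in CebpbΔM. The 9 markers together summed to 288 and 670 CPM in WT and 356 to 780 CPM in CebpbΔM macrophages. That sum moved with Ly6d, at 32.9 and 332 CPM in WT and 5.6, 11.8, 258 and 292 CPM in CebpbΔM macrophages. Ly6d stood at 352 to 601 CPM in MECs, so the sum does not measure plasmacytoid cells. Markers of conventional dendritic cells summed to 162 and 247 against 242 to 504 CPM, of B and plasma cells to 173 and 182 against 271 to 415 CPM, of T cells to 6.12 and 11 against 12.3 to 22.9 CPM, of fibroblasts to 5170 and 4600 against 2400 to 4950 CPM, of endothelium to 786 and 944 against 565 to 1270 CPM and of red cells to 93.1 and 23.2 against 30.9 to 60 CPM. NK cell and neutrophil markers stayed at or below 6.57 CPM in sum. The part of cell makeup in the differences of the 42 genes was not tested, and in bulk libraries more cells of a type and more RNA per cell cannot be told apart.

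**Figure D2:**
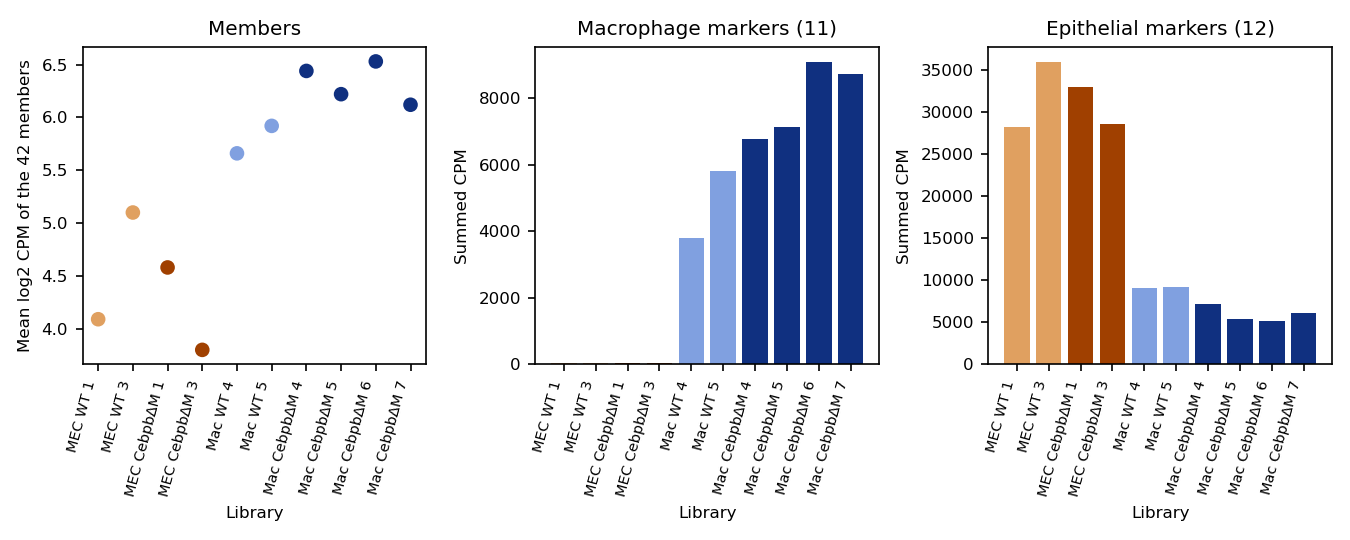
Left, mean log2 CPM of the 42 genes in each library; middle and right, summed CPM of 11 macrophage and 12 epithelial markers, all on one scale for the 10 libraries, the bars starting at 0. In macrophages the CebpbΔM libraries are above the WT libraries for the 42 genes and for macrophage markers and below them for the summed epithelial markers, a sum carried by Krt8, Krt18 and Krt19.

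In MECs, whose own Cebpb is not the target of the Cre, the question was whether the epithelium of CebpbΔM mice carried another level of these genes. The levels were lower in CebpbΔM for 38 of the 42 genes (51.4% of 15698 genes tested were lower), with a median log2 fold change of -0.4 against -0.01 over all genes. None passed the QL test, which called 0.051% of all genes, and 0 members were called by the likelihood ratio test (0.924% of all genes higher, 0.217% lower) or by DESeq2 (0.835% and 0.191%). Ifit2 alone had an unadjusted p under 0.05 (1.43% of all genes were lower at that p), and 5 genes, Stat2, Ddx58, Zbp1, Ifit2 and Mx1, were lower in both CebpbΔM libraries than in both WT libraries (13.3% of all genes). Single libraries decided the direction. WT 3 was the highest of the 4 MEC libraries in 35 of the 42 genes (83.3%, against 22.7% of all genes), and CebpbΔM 3 was the lowest in 27 (64.3%, against 26.0%). Within WT, 41 of 42 genes were higher in WT 3 than in WT 1, with a median ratio of 1.91 against 1.0 for all genes tested. Within CebpbΔM, 38 of 42 were higher in CebpbΔM 1 than in CebpbΔM 3, with a median ratio of 1.65 against 1.02. Leaving out a MEC library left a single library in its genotype, so the tests of those fits are not given here. Without WT 3 the median log2 fold change turned to 0.24, with 33 of 41 genes tested higher in CebpbΔM. It was -0.1 without CebpbΔM 3, -0.91 without CebpbΔM 1 and -0.85 without WT 1. Epithelial markers summed to 28200 (WT 1), 35900 (WT 3), 32900 (CebpbΔM 1) and 28500 (CebpbΔM 3) CPM, and WT 3 and CebpbΔM 1 were thus the higher library of their genotype for these markers too; macrophage markers lay between 31.6 and 47 CPM in all 4. Fibroblast markers summed to 5340 (WT 1), 4400 (WT 3), 4960 (CebpbΔM 1) and 5080 (CebpbΔM 3) CPM. The part of these cell types in the result was not tested.

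The difference between the genotype effects in macrophages and MECs was tested as an interaction in one fit of the 10 libraries. The effect was more positive in macrophages for 41 of the 42 genes (53.6% of 18323 genes tested), with Ifi35 the exception, and the median difference was 0.95 on the log2 scale against 0.04 over all genes. None passed the QL test (0.0% of all genes called), the likelihood ratio test (0.24% higher, 0.0491% lower) or DESeq2 (0.115% and 0.0328%). At an unadjusted p under 0.05 there were 9 members with a higher effect in macrophages (Zbp1, Ifit2, Ifit3, Oasl2, Mx1, Cmpk2, Iigp1, Ifi27l2a and Trim30a) and 0 with a lower one, against 3.29% and 1.9% of all genes. The values moved with single MEC libraries. The median was 0.25 without MEC WT 3, 0.59 without MEC CebpbΔM 3, 1.36 without MEC WT 1 and 1.4 without MEC CebpbΔM 1. Each of these fits left a single library in a MEC group, so their tests are not given. The number of members with an unadjusted p under 0.05 was 5 without macrophage CebpbΔM 6. The share of all genes at that p in that fit is not given here.

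**Figure D3:**
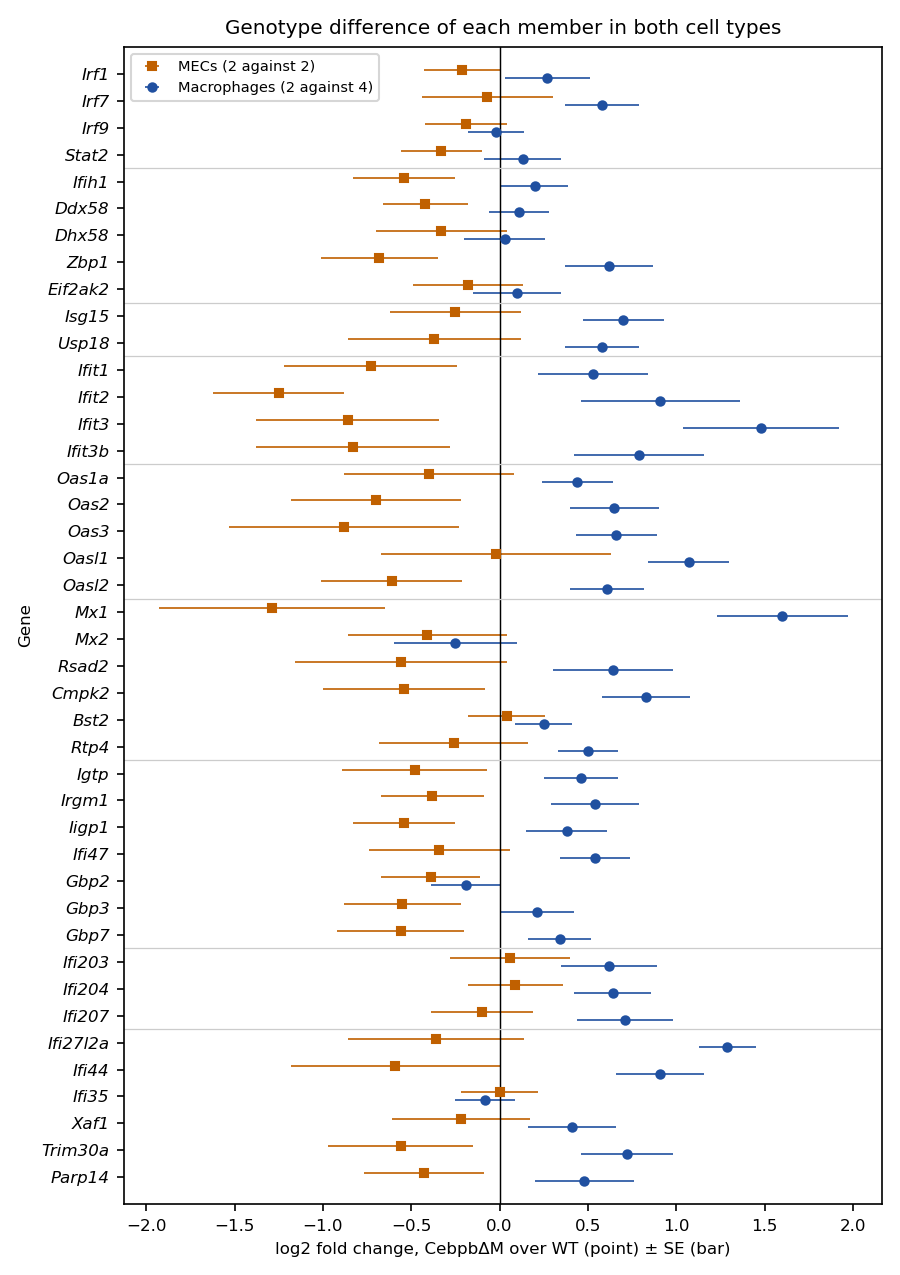
log2 fold change of CebpbΔM over WT (point) with its standard error (bar) for each of the 42 genes (rows, grouped by role) in MECs (squares) and macrophages (circles). Most squares lie left of 0 and most circles right of 0, and in several families the bars of both cell types are apart, although none of the genes passed the adjusted threshold in either cell type.

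Among the transcription factors, Irf7, which drives the genes of type I interferons and is itself one of their targets, stood at 116 and 141 CPM in WT macrophages and at 241, 170, 194 and 164 CPM in CebpbΔM macrophages. The groups did not overlap. Its log2 fold change was 0.58 ± 0.21 (SE; unadjusted p = 0.0219, adjusted p = 0.521). In MECs Irf7 was at 36.2 and 65.6 CPM in WT and at 66.9 and 29.7 CPM in CebpbΔM, so each genotype had a high and a low library (log2 fold change -0.07 ± 0.37 SE, adjusted p = 1.0). Stat2, the subunit that activates transcription in the interferon-responsive factor, was at 99.8 and 91.3 CPM in WT and 109, 81.4, 136 and 92.3 CPM in CebpbΔM macrophages, which overlapped (log2 fold change 0.13 ± 0.22 SE, adjusted p = 0.918). In MECs it was at 54.8 and 75.6 CPM in WT and 54.3 and 49.6 CPM in CebpbΔM (log2 fold change -0.33 ± 0.23 SE, adjusted p = 1.0). Its DNA-binding partner Irf9 and the factor Irf1, which interferon γ strongly induces, had log2 fold changes of -0.02 and 0.27 in macrophages and -0.19 and -0.21 in MECs. Irf9 shares part of its span with Rnf31 on the same strand.

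The sensors of foreign nucleic acid were nearly level between genotypes in macrophages, with a median log2 fold change of 0.11, except Zbp1. Zbp1, which binds left-handed nucleic acid, was at 20 and 32.5 CPM in WT and 48.3, 40.0, 37.0 and 36 CPM in CebpbΔM macrophages, without overlap (log2 fold change 0.62 ± 0.25 SE, unadjusted p = 0.0355, adjusted p = 0.555). The MEC libraries held 9.31 and 13.5 CPM in WT and 8.91 and 5.35 CPM in CebpbΔM, again without overlap but in the other direction (log2 fold change -0.68 ± 0.33 SE, adjusted p = 1.0). Its effects differed between the cell types by 1.33 ± 0.44 (SE) on the log2 scale (unadjusted p = 0.0115, adjusted p = 0.923). The RNA helicases Ifih1 (MDA5), Ddx58 (RIG-I) and Dhx58 and the RNA-dependent kinase Eif2ak2 had log2 fold changes from 0.03 to 0.2 in macrophages and from -0.54 to -0.18 in MECs. Dhx58, at 0.03, lay on the other side of 0 when libraries were scaled by their totals alone.

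Isg15, a ubiquitin-like protein that is attached to other proteins and whose promoter stretch with 3 matches is shown above, was at 18.7 and 16.6 CPM in WT and 32.9, 28.3, 31.7 and 22 CPM in CebpbΔM macrophages. Every CebpbΔM library was above both WT libraries (log2 fold change 0.7 ± 0.23 SE, unadjusted p = 0.0161, adjusted p = 0.521). The MEC values were 8.48 and 16.5 CPM in WT and 13.3 and 7.66 CPM in CebpbΔM, with overlap (log2 fold change -0.25 ± 0.37 SE, adjusted p = 1.0). Usp18, the protease that removes ISG15 and damps signalling at the interferon receptor, was at 57.0 and 55.3 CPM in WT and 90.0, 67.2, 103 and 74.4 CPM in CebpbΔM macrophages. These groups did not overlap either (log2 fold change 0.58 ± 0.21 SE, unadjusted p = 0.0244, adjusted p = 0.521). In MECs Usp18 was at 27.0 and 88.9 CPM in WT and 62.9 and 26.6 CPM in CebpbΔM, a wider gap within each genotype than between them.

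The Ifit genes lie side by side on chromosome 19, and the product of Ifit1 binds viral RNA that lacks the host's cap marks. All 4 were higher in CebpbΔM macrophages and lower in CebpbΔM MECs, with median log2 fold changes of 0.85 and -0.85. Ifit3 (chr19:34583531-34588731) was at 24.3 and 27.0 CPM in WT and 132, 52.6, 52.7 and 48.2 CPM in CebpbΔM macrophages. The groups did not overlap, and CebpbΔM 4 stood far above the other 3 (log2 fold change 1.48 ± 0.44 SE, unadjusted p = 0.0101, adjusted p = 0.495). In MECs Ifit3 was at 2.62 and 9.81 CPM in WT and 3.8 and 3.04 CPM in CebpbΔM, where WT 3 was the high library (log2 fold change -0.86 ± 0.52 SE, adjusted p = 1.0). Between macrophages and MECs the effects differed by 2.37 ± 0.8 (SE; unadjusted p = 0.0128, adjusted p = 0.923). Ifit3 shares 97.4% of its transcript with Ifit3b at 97% identity or more. Counting required a mapping quality of at least 10, so reads that fit both copies equally may be lost. The levels of both genes may then be too low, and the split of the remaining reads is uncertain.

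Ifit2 was at 22.3 and 34.7 CPM in WT macrophages and 96.9, 37.3, 45.3 and 34.5 CPM in CebpbΔM macrophages, with CebpbΔM 7 just under WT 5 and CebpbΔM 4 again far above (log2 fold change 0.91 ± 0.45 SE, unadjusted p = 0.0757, adjusted p = 0.612). In MECs it was at 4.45 and 5.35 CPM in WT and 2.3 and 1.82 CPM in CebpbΔM, that is 117 and 138 counts against 60 and 48. The MEC groups did not overlap, and this was the lowest p of the 42 genes in MECs (log2 fold change -1.25 ± 0.37 SE, unadjusted p = 0.0059, adjusted p = 0.358). The difference of its effects was 2.2 ± 0.64 (SE; unadjusted p = 0.00568, adjusted p = 0.84). Ifit1 was at 41.4 and 45.6 CPM in WT and 77.2, 57.6, 80 and 36.3 CPM in CebpbΔM macrophages, where CebpbΔM 7 was the lowest of the 6 libraries (log2 fold change 0.53 ± 0.31 SE, adjusted p = 0.682). In MECs Ifit1 was at 13 and 50.7 CPM in WT and 24.0 and 14.5 CPM in CebpbΔM, so that WT held both the highest and the lowest value (log2 fold change -0.73 ± 0.49 SE, adjusted p = 1.0).

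The OAS enzymes, clustered on chromosome 5, make the oligoadenylates that activate RNase L and the OAS-like proteins are their relatives. All 5 were higher in CebpbΔM macrophages, 4 of them without overlap (9.67% of all genes tested) and 4 with an unadjusted p under 0.05 (4.96%). Oasl1 (chr5:114923240-114937915), known for holding back the translation of Irf7, was at 81.9 and 118 CPM in WT and 229, 163, 237 and 211 CPM in CebpbΔM macrophages. The groups were well apart (log2 fold change 1.07 ± 0.23 SE, unadjusted p = 0.00137, adjusted p = 0.452 by QL, 0.0131 by the likelihood ratio test and 0.00364 by DESeq2). In MECs it was at 7.49 and 21.2 CPM in WT and 24.2 and 4.06 CPM in CebpbΔM, and each genotype spanned nearly the whole range. Oas2 was at 48.9 and 77.8 CPM in WT and 101, 76.8, 117 and 104 CPM in CebpbΔM macrophages. Only CebpbΔM 5 lay under the higher WT library (log2 fold change 0.65 ± 0.25 SE, unadjusted p = 0.0291, adjusted p = 0.536). In MECs Oas2 was at 7.79 and 25.7 CPM in WT and 13.2 and 7.36 CPM in CebpbΔM (log2 fold change -0.7 ± 0.48 SE, adjusted p = 1.0).

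Oas3 was at 25.3 and 27.3 CPM in WT and 54.0, 41.4, 33.0 and 37.9 CPM in CebpbΔM macrophages, without overlap (log2 fold change 0.66 ± 0.23 SE, unadjusted p = 0.021, adjusted p = 0.521). Oasl2 was at 109 and 144 CPM in WT and 216, 162, 224 and 166 CPM in CebpbΔM macrophages, also without overlap (log2 fold change 0.61 ± 0.21 SE, unadjusted p = 0.0203, adjusted p = 0.521). In MECs the 4 libraries in the order WT 1, WT 3, CebpbΔM 1 and CebpbΔM 3 held 3.88, 18.3, 9.29 and 2.77 CPM of Oas3 and 34.5, 83.4, 51.3 and 25.9 CPM of Oasl2. Both genes thus peaked in WT 3 and were lowest in CebpbΔM 3. The difference of the effects on Oasl2 was 1.25 ± 0.54 (SE; unadjusted p = 0.0424, adjusted p = 0.945). Oas1a had a log2 fold change of 0.44 in macrophages and -0.4 in MECs. Its transcript matches Oas1g over 100% of its length at 97% identity or more. Its reads therefore cannot be assigned with certainty, and those that fit both genes equally may be lost.

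In the group of other antiviral effectors, Mx1, the gene of a dynamin-like GTPase, showed the largest difference of the 42 genes in macrophages. Only its RNA was measured, and whether these BALB/c mice make a working protein was not tested. Mx1 (chr16:97447035-97462907) was at 4.19 and 5.43 CPM in WT and 18.4, 12.3, 18.4 and 9.4 CPM in CebpbΔM macrophages, from 80 to 351 counts. The lowest CebpbΔM library was well above the higher WT library (log2 fold change 1.6 ± 0.37 SE, 3.04-fold, unadjusted p = 0.00237, adjusted p = 0.452 by QL, 0.037 by the likelihood ratio test and 0.0138 by DESeq2). In MECs Mx1 was scarce, at 1.03 and 1.71 CPM in WT and 0.883 and 0.228 CPM in CebpbΔM, from 44 down to 6 counts. The MEC groups did not overlap, in the direction opposite to macrophages (log2 fold change -1.29 ± 0.64 SE, unadjusted p = 0.0684, adjusted p = 1.0). The difference of its effects was the largest of the 42 genes, at 2.93 ± 0.76 (SE; unadjusted p = 0.0028, adjusted p = 0.833). Its neighbour Mx2, the cytoplasmic relative, had a log2 fold change of -0.25 ± 0.35 (SE) in macrophages and an adjusted p of 0.899.

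Cmpk2, a mitochondrial nucleotide kinase encoded next to Rsad2 (viperin), was at 18.2 and 25.6 CPM in WT and 46.1, 33.9, 44.1 and 31.5 CPM in CebpbΔM macrophages, without overlap (log2 fold change 0.83 ± 0.25 SE, unadjusted p = 0.01, adjusted p = 0.495). MEC levels were 7.68 and 23.0 CPM in WT and 13.6 and 7.44 CPM in CebpbΔM, with WT 3 the highest. The difference of its effects was 1.4 ± 0.62 (SE; unadjusted p = 0.0439, adjusted p = 0.948). Rtp4, a chaperone of receptor trafficking, was at 46.6 and 57.2 CPM in WT and 73.6, 71.0, 80.9 and 68.6 CPM in CebpbΔM macrophages, without overlap (log2 fold change 0.5 ± 0.17 SE, unadjusted p = 0.0184, adjusted p = 0.521). In MECs Rtp4 was at 28.6 and 62.8 CPM in WT and 54.5 and 22 CPM in CebpbΔM. Bst2 (tetherin), which holds budding virus at the cell surface, was at 47.4 and 51.0 CPM in WT and 59, 58.8, 61.7 and 55.2 CPM in CebpbΔM macrophages. The groups did not overlap, but the difference was small (log2 fold change 0.25 ± 0.16 SE, adjusted p = 0.697). In MECs Bst2 was the steadiest of the named genes, at 33.3 and 36 CPM in WT and 34.0 and 37.3 CPM in CebpbΔM (log2 fold change 0.04 ± 0.22 SE, adjusted p = 1.0).

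**Figure D4:**
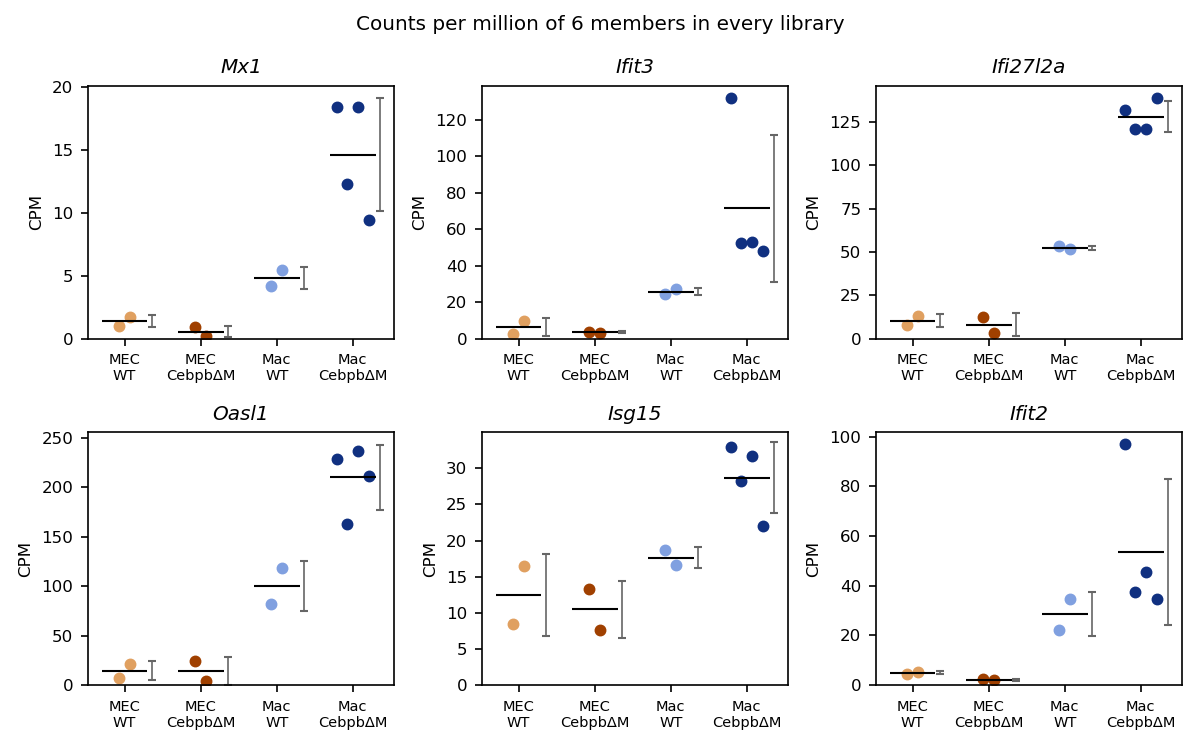
CPM of 6 genes in every library (points, vertical axis from 0), with the group mean (line) and SD (bar). Mx1, Ifi27l2a, Oasl1, Ifit3 and Isg15 are higher in all 4 CebpbΔM macrophage libraries than in both WT macrophage libraries, Ifit3 and Ifit2 have 1 high CebpbΔM library, and Ifit2 is lower in both CebpbΔM MEC libraries.

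The interferon-inducible GTPases, which attack the vacuoles of intracellular microbes and are strong targets of interferon γ, had a median log2 fold change of 0.38 between genotypes in macrophages. Ifi47 was the one GTPase with an unadjusted p under 0.05 there, at 103 and 119 CPM in WT and 156, 179, 186 and 123 CPM in CebpbΔM macrophages. The groups did not overlap, by a narrow margin (log2 fold change 0.54 ± 0.2 SE, unadjusted p = 0.0298, adjusted p = 0.536). In MECs Ifi47 was at 14.1 and 35.0 CPM in WT and 24.4 and 14.4 CPM in CebpbΔM. Gbp2 went the other way in macrophages, at 95.2 and 82.0 CPM in WT and 64.2, 80, 94.9 and 70.5 CPM in CebpbΔM, with overlap (log2 fold change -0.19 ± 0.2 SE, adjusted p = 0.845). In MECs Gbp2 was at 51.5 and 96.3 CPM in WT and 57.9 and 54.6 CPM in CebpbΔM (log2 fold change -0.39 ± 0.28 SE, adjusted p = 1.0). Iigp1 was at 343 and 412 CPM in WT and 393, 548, 628 and 393 CPM in CebpbΔM macrophages, with overlap, and at 87.5, 167, 79.6 and 95.7 CPM in MEC WT 1, WT 3, CebpbΔM 1 and CebpbΔM 3. The difference of its effects was 0.96 ± 0.42 (SE; unadjusted p = 0.0442, adjusted p = 0.952). Igtp, Irgm1, Gbp3 and Gbp7 had log2 fold changes from 0.21 to 0.54 in macrophages and from -0.56 to -0.38 in MECs.

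The Ifi200 genes on chromosome 1 encode DNA-binding proteins. All 3 were higher in every CebpbΔM macrophage library than in both WT libraries (9.67% of all genes tested were). Ifi207 was at 120 and 204 CPM in WT and 209, 249, 340 and 264 CPM in CebpbΔM macrophages (log2 fold change 0.71 ± 0.27 SE, unadjusted p = 0.0291, adjusted p = 0.536). Ifi204 was at 37.7 and 56.6 CPM in WT and 80.2, 62.7, 83.3 and 68.1 CPM in CebpbΔM macrophages (log2 fold change 0.64 ± 0.22 SE, unadjusted p = 0.0201, adjusted p = 0.521). For both, WT 4 was the lowest library, and for Ifi207 the gap between WT 5 and CebpbΔM 4 was narrow. Ifi203 was at 86.0 and 104 CPM in WT and 132, 135, 207 and 109 CPM in CebpbΔM macrophages (log2 fold change 0.62 ± 0.27 SE, unadjusted p = 0.0489, adjusted p = 0.575). In MECs the family was the one without a lower median in CebpbΔM. There Ifi203 was at 36.8 and 63.3 CPM in WT and 69.6 and 34.4 CPM in CebpbΔM, Ifi204 at 13.9 and 17.3 CPM and at 18.8 and 14.5 CPM, and Ifi207 at 20.8 and 13.2 CPM and at 17.6 and 14.2 CPM, and the log2 fold changes ran from -0.1 to 0.09. Ifi203 and Ifi204 share 27.2% and 21.2% of their transcripts with other genes at 97% identity or more, the latter with Mndal, so their counts carry that uncertainty.

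Ifi27l2a, a small hydrophobic protein, had the lowest p of the 42 genes in macrophages. Ifi27l2a (chr12:103442167-103443680) was at 53.2 and 51.5 CPM in WT and 132, 121, 121 and 139 CPM in CebpbΔM macrophages, or 52.4 ± 1.16 (SD, n = 2) against 128 ± 8.61 CPM (SD, n = 4). The groups were far apart and each was tight (log2 fold change 1.29 ± 0.16 SE, 2.45-fold, unadjusted p = 3.48e-05, adjusted p = 0.452 by QL, 1.93e-05 by the likelihood ratio test and 3.73e-11 by DESeq2). In MECs Ifi27l2a was at 7.56 and 13 CPM in WT and 12.6 and 3.45 CPM in CebpbΔM, with wide gaps within both genotypes (log2 fold change -0.36 ± 0.5 SE, adjusted p = 1.0). The difference of its effects was 1.68 ± 0.61 (SE; unadjusted p = 0.0184, adjusted p = 0.938). Ifi44 was at 70.3 and 86.2 CPM in WT and 194, 116, 158 and 120 CPM in CebpbΔM macrophages, without overlap (log2 fold change 0.91 ± 0.25 SE, unadjusted p = 0.00645, adjusted p = 0.48 by QL, 0.104 by the likelihood ratio test and 0.0487 by DESeq2). Its MEC values were 8.51 and 35.3 CPM in WT and 21.9 and 7.21 CPM in CebpbΔM. Trim30a, a restrainer of Toll-like receptor signalling, was at 44.4 and 81.2 CPM in WT and 90.3, 97.5, 121 and 104 CPM in CebpbΔM macrophages, without overlap (log2 fold change 0.72 ± 0.26 SE, unadjusted p = 0.0238, adjusted p = 0.521). In MECs it was at 5.97 and 10.7 CPM in WT and 7.72 and 3.57 CPM in CebpbΔM, and the difference of its effects was 1.32 ± 0.54 (SE; unadjusted p = 0.032, adjusted p = 0.945). Ifi35, Xaf1 and Parp14 had log2 fold changes of -0.08, 0.41 and 0.48 in macrophages, and in MECs of 0.0, -0.22 and -0.43. The value of Ifi35 in MECs changed side under the scaling of DESeq2.

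Macrophage libraries were then compared with MEC libraries within each genotype, to ask how the programme is divided between them. In WT, 19 of the 42 genes passed the QL test as higher in macrophages and 0 as lower (14.8% of 18323 genes passed as higher and 10.7% as lower), and the median log2 fold change was 1.09 against 0.06 over all genes. Among those 19 were Irf1 and Irf7, the sensors Dhx58 and Zbp1, Ifit2, Ifit3, Oas1a, Oas2, Oasl1, Mx1, Iigp1, Ifi47, Gbp3 and Gbp7. The largest differences were those of Ifi207 (log2 fold change 3.11 ± 0.34 SE, adjusted p = 8.91e-05), Trim30a (2.77 ± 0.42, adjusted p = 0.000777) and Oasl1 (2.66 ± 0.68, adjusted p = 0.0151). On the scale common to the 10 libraries Ifi207 was at 22.2 and 13.8 CPM in WT MECs and 115 and 195 CPM in WT macrophages. Irf9, Usp18 and Rsad2 had values below 0 in WT, at -0.0, -0.18 and -0.5, none of them past the test, and Irf9 changed side when libraries were scaled by their totals alone. That scaling also moved the median of all genes from 0.06 to 0.24 and that of the members from 1.09 to 1.26. The count of 19 was 6 without MEC WT 1 and 9 without macrophage WT 5, and the 6 were Gbp7, Ifi204, Ifi207, Ifi47, Ifit2 and Trim30a.

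In CebpbΔM, 36 of the 42 genes passed as higher in macrophages and 0 as lower (18.9% and 14.7% of all genes), with a median log2 fold change of 1.9 against 0.07 over all genes. The 36 included all 19 genes called in WT. The 17 called in CebpbΔM alone included Isg15, Stat2, Ifit1, Oas3, Oasl2, Bst2 and Cmpk2, and the 6 called in neither were Irf9, Usp18, Rsad2, Rtp4, Gbp2 and Ifi35. A call in one genotype and not in the other does not show that they differ: that is the interaction above, in which no gene passed. Nor does that show that they are alike, because the interaction test recovered 0% of simulated 2-fold and 28% of simulated 4-fold changes. Mx1 had the largest difference in CebpbΔM, from 0.935 and 0.233 CPM in MECs to 17.9, 11.9, 18.0 and 9.13 CPM in macrophages on the common scale (log2 fold change 4.6 ± 0.6 SE, adjusted p = 0.000172). Ifit2 followed at 4.59 ± 0.51 (SE; adjusted p = 6.17e-05) and Ifit3 at 4.28 ± 0.63 (SE; adjusted p = 0.000407). Without MEC CebpbΔM 3 the count was 25. The MEC and macrophage libraries were counted in separate tables and prepared by different selections, so cell type and experiment cannot be told apart. The macrophage libraries also held markers of other cells. Epithelial markers summed to 5110 to 9160 CPM there and to 28200 to 35900 CPM in MECs. Endothelial markers summed to 565 to 1270 CPM there and to 51.5 to 74.7 CPM in MECs. Fibroblast markers were high in both, with sums of 4400 to 5340 CPM in MEC libraries and 2400 to 5170 CPM in macrophage libraries. The part of such cells in the differences of either genotype was not tested.

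**Figure D5:**
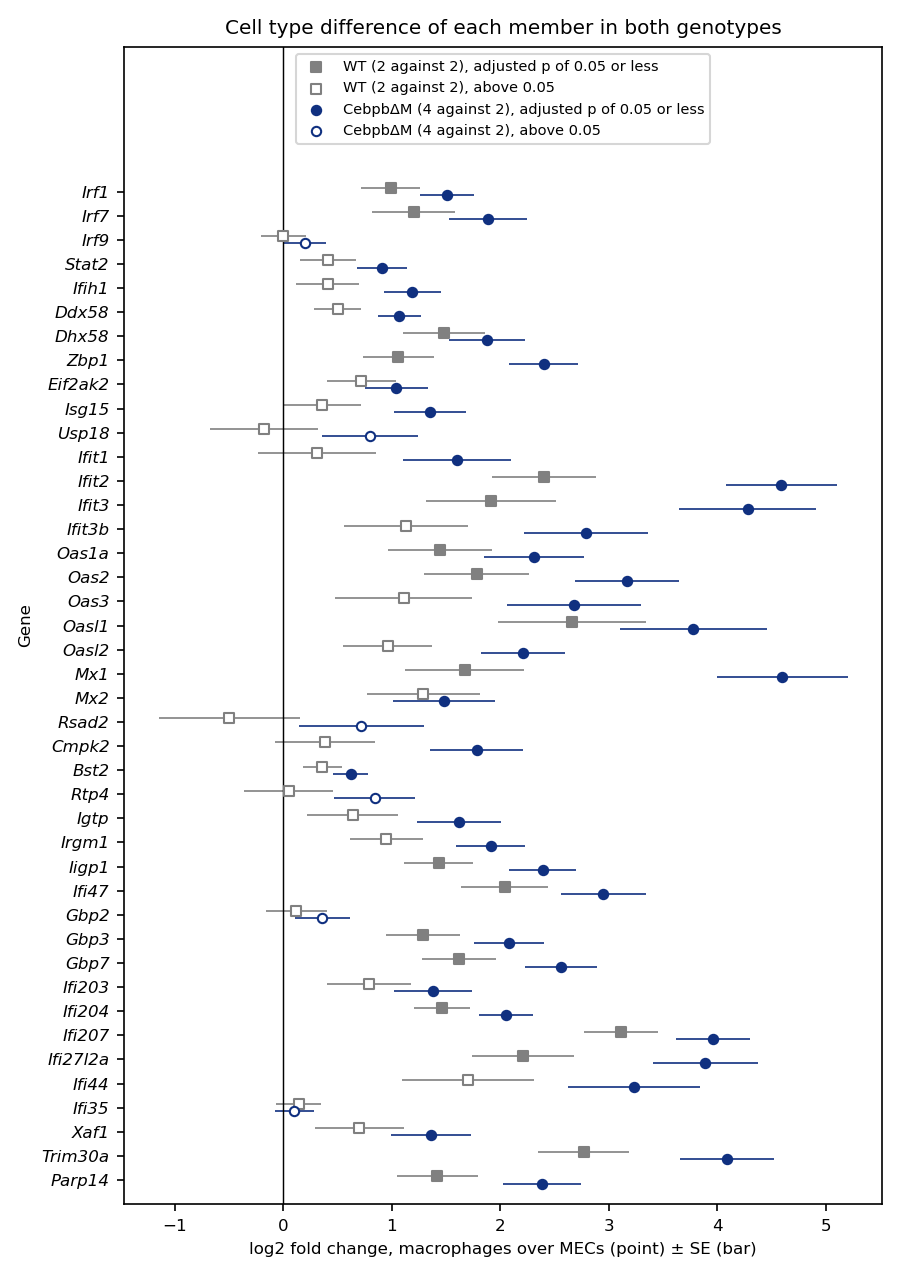
log2 fold change of macrophages over MECs (point) with its standard error (bar) for each of the 42 genes in WT (squares) and CebpbΔM (circles); filled symbols passed an adjusted p of 0.05 in the QL test. There are 19 filled squares and 36 filled circles, and the circle lies right of the square in 41 of the 42 rows.

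Per kilobase of exon, as CPM per kilobase (RPKM) on the common scale, Irf1 was the highest of the 42 genes in WT MECs (69.2, from 62.3 to 76.1) and in WT macrophages (137, from 137 to 138). In CebpbΔM macrophages Ifi27l2a took the first place, at 269 (254 to 291) against 169 (132 to 229) for Irf1, without overlap between the genes. In WT macrophages it had been second at 108 (106 to 110). Mx1 was the lowest of the 42 genes in each of the 4 groups, from 0.154 RPKM in CebpbΔM MECs to 3.76 RPKM in CebpbΔM macrophages.

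Upstream of these genes, the interferons themselves were hardly seen. Of 21 interferon genes on the tables (13 of the Ifna family and Ifnab, Ifnb1, Ifne, Ifng, Ifnk, Ifnl2, Ifnl3 and Ifnz), 11 had 0 counts in all 10 libraries, none passed the expression filter, and their summed level was at most 0.731 CPM in any library. Ifng, the type II interferon, had 0 counts in every library, which at 3 counts per library allows up to 0.177 CPM. Ifnb1 had at most 2 counts. Among 18 receptors, kinases and signal transducers, none passed in either genotype comparison, and 2 had an unadjusted p under 0.05 as higher in CebpbΔM macrophages (4.96% of all genes did). One of them was Ifnar2, a chain of the type I interferon receptor, with a log2 fold change of 0.69 ± 0.19 (SE) in macrophages (unadjusted p = 0.00701, adjusted p = 0.48). In WT, 5 of the 18 passed as higher in macrophages than in MECs and in CebpbΔM 11, with 0 lower in both (14.8% and 18.9% of all genes passed as higher). Of 17 sensors and adaptors that act ahead of interferon, none passed in the macrophage genotype comparison, and Tlr7, the endosomal RNA receptor, was at 211 and 559 counts in WT and 899, 858, 901 and 925 counts in CebpbΔM macrophages (log2 fold change 1.34, unadjusted p = 0.00493, adjusted p = 0.461).

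A further 40 interferon-stimulated genes outside the list, among them Ifitm3, Gbp4, Gbp5, Slfn2, Cxcl9 and Cxcl10, were examined in the same way. They too were chosen with earlier results of these data known. In macrophages 33 of the 40 had a log2 fold change above 0 (50.4% of all genes did), with a median of 0.35. At an unadjusted p under 0.05, 8 were higher (4.96% of all genes) and 0 lower (3.67%), and none passed the adjusted test. In MECs 8 of the 38 that were tested had a log2 fold change above 0, with a median of -0.23, and none passed. In WT, 22 of the 40 passed as higher and 1, Isg20, as lower in macrophages than in MECs, and in CebpbΔM 33 passed as higher and again Isg20 as lower. Over all genes, 14.8% passed as higher in WT and 18.9% in CebpbΔM.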

How the data were processed

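RNA was sequenced from lineage-depleted MECs (4 libraries) and F4/80-selected macrophages (6 libraries) of WT and CebpbΔM mice. The authors trimmed reads with Trimmomatic 0.33, aligned them to GRCm38 with HISAT2 2.1.0 and deposited raw counts per gene from featureCounts 1.6.2 (Ensembl release 100, minimum mapping quality 10, reverse-strand setting 2). The library kit is not stated to mark strand, so reads of the 12 members that overlap a gene on the other strand may be assigned wrongly. A replicate 2 of MECs, named in a file header, was not analysed here, and 0 sample columns were left unused.

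The 42 members, the comparison lists and the role groups were chosen with earlier results of these data known. Genes of at least 300 nt with more than 1 CPM in at least 2 libraries were tested with edgeR 4.0.16 (R 4.3.3; TMM, QL F-test, Benjamini-Hochberg over all genes tested, threshold 0.05), separately for MECs and macrophages by genotype, and over the 10 libraries for cell type and interaction. The likelihood ratio test of the study was run as an alternative, as were DESeq2 1.42.0, other scalings and filters, a replicate block and leaving out each library; the newer form of the QL test was added after seeing the data. Per-library values with tests are given for members with an unadjusted p under 0.05 in a genotype comparison or the interaction, and for Isg15, Ifit1, Irf7, Stat2, Oas2, Mx1, Ifi27l2a, Bst2 and Gbp2 whatever their values; other members are given by range. Log2 CPM used a prior count of 2. Transcripts were compared with blastn 2.17.0+ (97% identity over at least 150 bases). Scripts were tested on simulated counts with 100 genes changed 2-fold and 100 changed 4-fold. The QL test recovered 44% and 92% of these in MECs, 4% and 60% in macrophages and 0% and 28% in the interaction. A member that did not pass is therefore not shown to be unchanged.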

Additional observations from a re-analysis of the deposited data

Results flagged for a closer look

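Among the 4 CebpbΔM macrophage libraries, 3 of the 42 genes had 1 library apart from the other libraries, by a gap, as a share of the group's range, past the limit of Dixon's test; chance alone sets about 1 group in 20 apart. Ifit3 was at 132 CPM in CebpbΔM 4 (gap 0.946 of the range), and its relative Ifit2 came just short of the limit in the same library (0.828). Parp14, an ADP-ribosyltransferase, was at 98.2 CPM in CebpbΔM 6 (0.835), and the RNA helicase Dhx58 was low at 45.1 CPM in CebpbΔM 5 (0.885). The cause was not tested.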

How the results depend on the processing

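Leaving out a MEC library left a single library in its genotype. The QL test called 0 members in MECs with all libraries. Of all genes in MECs it called 8, against 179 by the likelihood ratio test, 161 by DESeq2, 67 without a filter, 0 with scaling by library totals, 0 in one fit of the 10 libraries, and 2 to 337 without single libraries. The members' median log2 fold change in MECs ran from -0.91 to 0.24 without single libraries and the difference of their mean log2 CPM from -0.91 to 0.1, both turning above 0 without WT 3. In macrophages the likelihood ratio test called 3 members and DESeq2 5, of 138 and 201 genes. For the interaction they called 53 and 27 genes, and leaving out single libraries gave 0 to 1. Macrophages against MECs gave 6 to 21 called members and 2456 to 4846 called genes (4664 with all libraries) in WT without single libraries, and 3496 to 6556 genes (6174) in CebpbΔM. The newer form of the QL test, added after seeing the data, called 0 members in both genotype comparisons. Same-numbered libraries deviated together with r = 0.106 in MECs and 0.129 and -0.086 in macrophages. In MECs, 2 libraries per genotype give both pairs the same r by construction. These values do not decide whether libraries with the same number share more than the number. With a replicate block 205 genes were called in MECs, 12 in macrophages and 1 in the interaction, and 0 members in each. No paired analysis was possible for macrophages against MECs because these groups share no replicate numbers. The cause of these shifts was not tested.

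Of 658 alternative values of 42 gene results, 13 changed direction and 9 newly passed. In MECs the log2 fold changes without single libraries ran from -0.78 to 0.43 (Irf7), -0.7 to 0.32 (Isg15), -1.4 to 0.57 (Ifit1), -1.32 to 0.41 (Oas2), -0.77 to 0.14 (Gbp2), -1.57 to 0.29 (Ifi27l2a) and -0.03 to 0.12 (Bst2). Those above 0 came without WT 3, and for Irf7 (0.39), Isg15 (0.09) and Ifi27l2a (0.29) also without CebpbΔM 3; Ifi27l2a was at 0.09 without WT 3, and Bst2, above 0 with all libraries, was below 0 without WT 1 (-0.01) or CebpbΔM 3. Stat2 in macrophages ran from -0.02 (without CebpbΔM 6) to 0.24 and was at -0.02 with the replicate block. Depth limits the scarcest gene most, Mx1 in MECs, which had 6 counts in CebpbΔM 3.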
